A study of Mus musculus with 4 samples.

Results

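The Hox genes are the homeobox transcription factor genes that lie side by side in 4 clusters, Hoxa, Hoxb, Hoxc and Hoxd. Their transcripts were followed by bulk RNA sequencing of 4TO7, a carcinoma line of the mouse mammary gland, recovered from digested tumors of BALB/c mice. Members were the protein-coding genes whose symbol is Hoxa, Hoxb, Hoxc or Hoxd followed by digits only, which gave 39 of the 55385 genes of the deposited table. The rule used the symbol and no measured value. The 2 groups were 4TO7 cells from tumors resistant to immunotherapy (2 libraries) and 4TO7 cells from control tumors (2 libraries). Strain, cell line and isolation were the same in both groups. All 4 samples carry the treatment label untreated, whereas the treatment protocol of all 4 names anti-PD-L1, an antibody against a checkpoint ligand, in vivo, so the treatment given to control tumors is unclear. Both groups rest on a single cell line, no label gives the age of the animals, and whether the 2 libraries of a group are from different animals is not stated, which leaves p-values to cover just the scatter among these libraries.

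Hox proteins bind DNA through a homeodomain, usually beside TALE cofactors of the Pbx and Meis families, and specify position along the body axis. Within a cluster all genes are transcribed in one direction, and in embryos the genes at the 3′ end are switched on earlier and more anteriorly than those at the 5′ end. Polycomb complexes keep silent Hox genes repressed, Trithorax proteins keep active ones on, and retinoic acid induces genes at the 3′ end. Adult cells keep part of the pattern of their site of origin, and in the mouse mammary gland the genes of paralogue group 9 are needed for development in pregnancy.

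The libraries held 45666470 to 49592054 counted reads. Values are the authors' normalized counts, that is, reads divided by a size factor per library. Across tested genes, log2 values correlated with r = 0.995 within the resistant pair and r = 0.989 within the control pair. The labelled cell type was checked by markers. The keratins Krt8 and Krt18 stood at 12649 normalized counts or more in every library, Cdh1 was present, and the basal keratins Krt5 and Krt14 had 0 reads. The epithelial list was not even between groups. Over all tested genes 5.32% were higher in resistant cells and 4.73% lower. Of its 12 markers 9 were tested, 3 were higher in resistant cells (Krt19, log2 difference 2.97; Cldn4, 1.95; Krt7, 1.90) and Epcam was lower (-1.53; limma, adjusted p-values of 0.000812 to 0.0139 over the 4). Of these 4 Krt19 alone stayed called without a filter, Cldn4 and Krt7 lost their calls without resistant replicate 2, and Epcam lost its call without resistant replicate 1. Of 13 leukocyte markers 11 averaged under 10 normalized counts, among them Ptprc, the gene for CD45.

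One cluster was expressed and the others were close to or at 0 reads, in resistant and control cells alike. Hoxa (chromosome 6, 52155590 to 52260880, GRCm38) took 21840 of the 21965 reads counted over all Hox genes, or 99.4%. Its share was 99.8% and 99.7% in the resistant libraries, against 99.3% and 98.8% in the control libraries. Hoxc (chromosome 15, 102921103 to 103036852) had 121 reads over all libraries and Hoxb (chromosome 11, 96194316 to 96368256) had 4. Hoxd (chromosome 2, 74668310 to 74765142) had 0 of 188437752 reads over its 9 genes, which allows up to 0.0159 RPM, a scale relative to all counted reads. That limit, like every counting interval given here, covers counting error only, since no molecular identifiers separate PCR copies from original molecules. Of their exon length, Hoxd3 shares 62.8% and Hoxd4 52.3% with other annotated genes. The sources used here do not state how reads in shared exons were counted. Of the 39 genes, 19 had a read in any library and 20 had none. In bulk samples, fewer cells that express a gene and less RNA of it per cell cannot be told apart.

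The promoters of the silent clusters can be set beside those of Hoxa in sequence. The windows below run from 250 bases before to 50 bases after the transcription start in RefSeq on GRCm38.p6. They are written 5′ to 3′ on the gene's own strand, with each CpG dinucleotide, the site of vertebrate DNA methylation, in capitals. They are shown for the most abundant gene (Hoxa7, chr6:52218524-52218823, minus strand), the gene that passed the test between groups (Hoxa3, chr6:52213018-52213317, minus strand), the one Hoxa gene with 0 reads (Hoxa11, chr6:52245761-52246060, minus strand) and a gene with 0 reads from each of 2 other clusters (Hoxb4, chr11:96318017-96318316, and Hoxd9, chr2:74697513-74697812, both plus strand).
Hoxa7: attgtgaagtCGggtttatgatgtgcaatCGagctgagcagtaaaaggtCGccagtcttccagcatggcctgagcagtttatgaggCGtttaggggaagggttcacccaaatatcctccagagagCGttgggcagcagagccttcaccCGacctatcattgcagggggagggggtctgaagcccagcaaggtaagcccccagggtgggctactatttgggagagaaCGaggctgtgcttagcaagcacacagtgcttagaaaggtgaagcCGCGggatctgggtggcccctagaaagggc
Hoxa3: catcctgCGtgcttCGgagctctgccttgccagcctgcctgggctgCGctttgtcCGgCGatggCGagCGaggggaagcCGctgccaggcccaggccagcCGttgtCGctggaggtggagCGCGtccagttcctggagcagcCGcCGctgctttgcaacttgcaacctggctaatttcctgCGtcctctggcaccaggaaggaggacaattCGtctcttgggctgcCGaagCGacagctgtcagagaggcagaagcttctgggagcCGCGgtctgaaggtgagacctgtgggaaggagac
Hoxa11: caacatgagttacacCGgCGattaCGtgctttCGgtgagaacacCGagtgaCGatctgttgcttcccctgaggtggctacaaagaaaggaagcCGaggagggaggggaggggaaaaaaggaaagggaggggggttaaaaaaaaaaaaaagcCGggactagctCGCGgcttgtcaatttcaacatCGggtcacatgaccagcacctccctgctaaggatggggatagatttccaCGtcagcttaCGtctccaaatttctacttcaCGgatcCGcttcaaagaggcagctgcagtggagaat
Hoxb4: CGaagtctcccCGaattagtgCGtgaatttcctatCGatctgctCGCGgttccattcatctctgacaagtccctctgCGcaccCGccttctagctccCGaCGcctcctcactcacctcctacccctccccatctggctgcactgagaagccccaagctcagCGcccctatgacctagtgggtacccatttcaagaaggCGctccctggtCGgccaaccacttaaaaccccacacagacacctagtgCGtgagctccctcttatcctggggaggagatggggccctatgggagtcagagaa
Hoxd9: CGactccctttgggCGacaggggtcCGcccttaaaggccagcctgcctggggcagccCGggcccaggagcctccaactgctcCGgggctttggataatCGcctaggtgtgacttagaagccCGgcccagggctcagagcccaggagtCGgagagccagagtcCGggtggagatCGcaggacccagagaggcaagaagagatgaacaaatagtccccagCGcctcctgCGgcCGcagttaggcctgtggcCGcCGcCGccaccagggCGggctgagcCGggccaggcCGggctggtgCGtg

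The relation of CpG content to expression was not tested over these windows, and the counts are a description. Hoxa7, with the most transcript, had 9 CpG in its 300 bases, and Hoxa3 and Hoxa5, also expressed, had 20 and 29. Hoxa11, Hoxb4 and Hoxd9, with 0 reads, had 15, 14 and 20, and Hoxd4 and Hoxd8, also with 0 reads, had 4 and 6. The Hoxa7 window lies inside the gene, whose annotation reaches upstream to 52221854. Likewise the Hoxa3 window lies inside its gene, which reaches upstream to 52213336. Which start these cells used was not measured. Of the 39 genes 22 matched the promoter table, with 24 windows. The 10 Hoxa windows had a median of 17.5 CpG (4 to 45) and the 10 Hoxd windows a median of 20 (4 to 37). The 3 Hoxb windows had a median of 13 (10 to 14), and the 1 Hoxc window had 9. All 32851 promoter windows of the genome had a median of 7. The motif TGATNNAT, a composite that Hox and Pbx proteins bind together, was searched on both strands. It lay in 4 of 24 Hox windows (16.7%), against 8.85% of all windows. By cluster this was 1 of 10 Hoxa, 2 of 3 Hoxb, 0 of 1 Hoxc and 1 of 10 Hoxd windows. The 2 Hoxb windows belong to Hoxb1 and Hoxb8, which had 0 reads. TATAAA, the core of the TATA box, lay in 4 of 24 Hox windows and in 13.6% of all windows. The searches ran separately and overlap between the motifs was not removed. These matches describe the letters of the windows only.

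Along the Hoxa cluster, levels went up and down several times rather than falling steadily toward either end. Levels between genes are given as normalized counts per kb of annotated exon, averaged over the 4 libraries. Hoxa7 was highest at 567 (471 to 656 over libraries), followed by Hoxa5 at 450 (363 to 521) and Hoxa10 at 398 (356 to 479). These ranges overlapped between neighbours in the order. Hoxa2 (312, with 268 to 347) was lower and did not overlap Hoxa10. Hoxa6 (128, with 79.3 to 177) and Hoxa3 (70.0, with 52.7 to 90.1) formed a lower step and overlapped each other. Hoxa9 (11.0, with 9.80 to 12.4), Hoxa4 (5.41) and Hoxa13 (5.19) were near the bottom, and Hoxa11 had 0 reads. Hoxa4 thus lay between Hoxa3 and Hoxa5 with 8.62 normalized counts, and Hoxa9 beside Hoxa10 with 61.4. For scale, the median of all tested genes was 272 normalized counts per kb, and Hoxa7 lay at percentile 68.6 of them. Exon length is the union of all annotated exons, 6014 bases for Hoxa3 and 5580 for Hoxa9. Genes with long alternative transcripts thus appear lower on this scale. Part of this length is shared with other annotated genes on either strand, 27.1% for Hoxa3, 20.4% for Hoxa7, 16.0% for Hoxa4 and 15.0% for Hoxa2. For Hoxa5, Hoxa6 and Hoxa10 it was 0%. The effect of shared exons on the order was not tested.

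**Figure D1:**
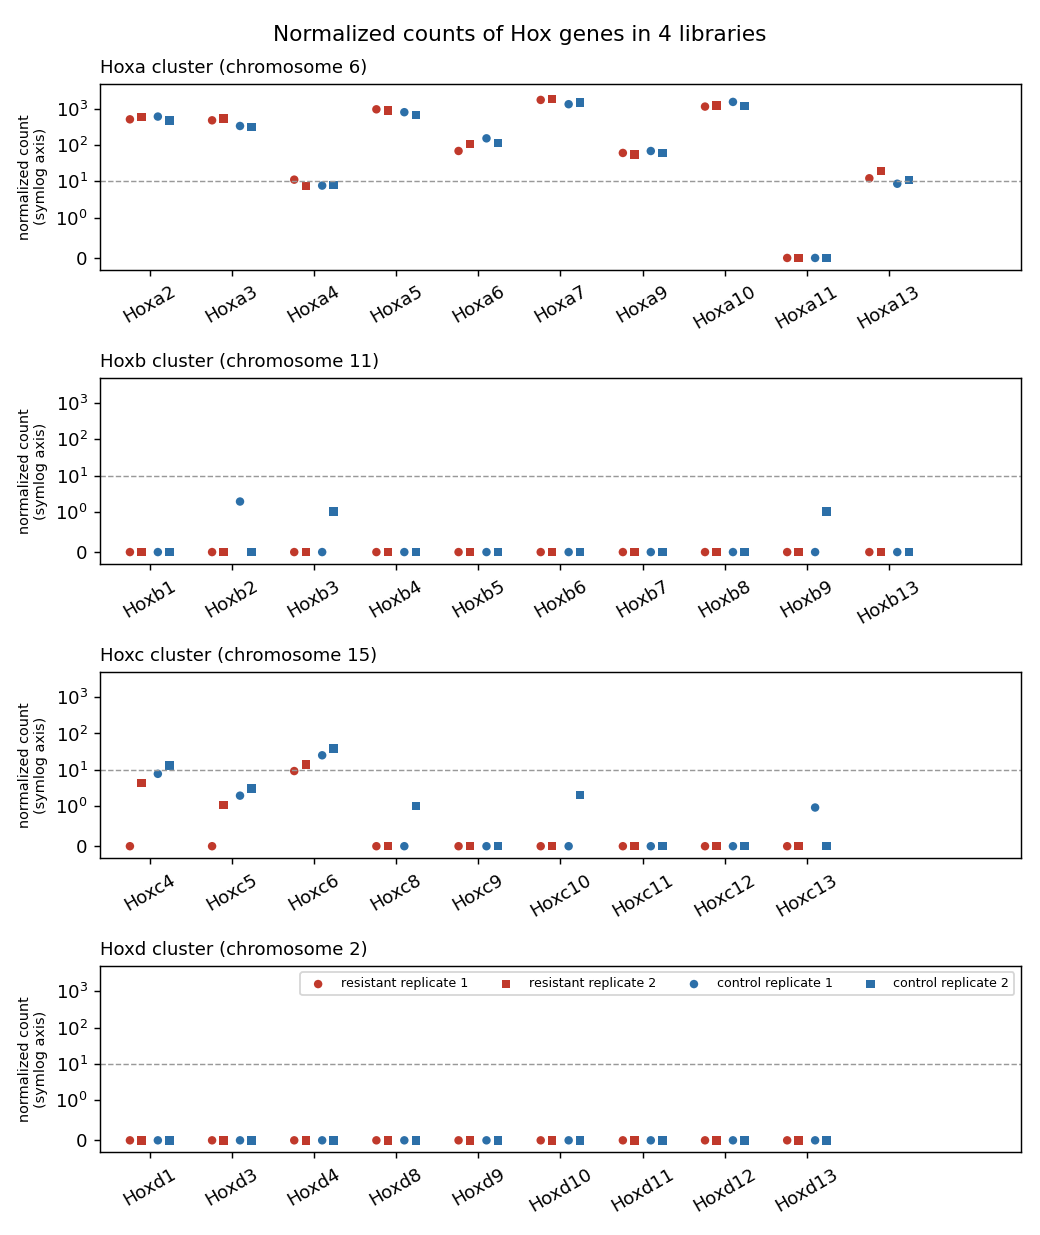
Normalized counts (symlog axis) of Hox genes, in one panel per cluster, with one symbol per library (red, resistant; blue, control; circle, replicate 1; square, replicate 2); the dashed line marks the mean of 10 normalized counts needed for testing. Hoxa genes other than Hoxa11 carry reads in every library, Hoxc6 lies between 9.17 and 38.3, and every Hoxd gene is at 0.

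**Figure D2:**
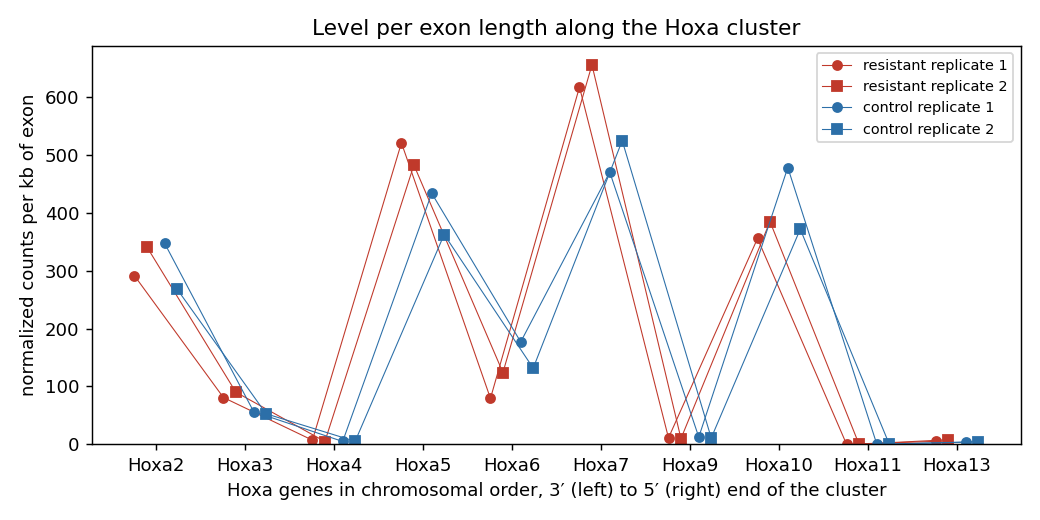
Normalized counts per kb of exon for Hoxa genes in chromosomal order, from Hoxa2 toward the 3′ end to Hoxa13 at the 5′ end, with one line per library. In all 4 libraries Hoxa5, Hoxa7 and Hoxa10 stand above their neighbours, with Hoxa6 between Hoxa5 and Hoxa7 and Hoxa9 between Hoxa7 and Hoxa10.

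The comparison of resistant with control cells asked whether Hox transcripts differed with resistance. Testing was in limma, for genes with a 4-library mean of 10 normalized counts or more, on the deposited log2(normalized count + 1) scale, and p-values were adjusted by the Benjamini-Hochberg method over all 14238 such genes. Of the 39 Hox genes 10 were tested, 9 of Hoxa and Hoxc6. Hoxa3 alone was higher in resistant cells and none was lower, against 5.32% of all tested genes higher and 4.73% lower. The share called, 1 of 10, is near the 10.1% of all tested genes called in either direction, so it is not a result about the Hox genes as a group. Without adjustment, 2 Hox genes were higher and 1 was lower at a p under 0.05, in limma as in limma voom on recovered reads, where none passed after adjustment. The median log2 difference, resistant minus control, was 0.11 over the 10 tested Hox genes and 0.00 over all tested genes.

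Hoxa3, a gene of the anterior class needed in the mouse for the thymus and parathyroid, carried the one call. Hoxa3 (ENSMUSG00000079560.13, chromosome 6, 52169062 to 52213336, minus strand) had 486 and 542 normalized counts in resistant cells, against 339 and 317 in control cells. Both resistant libraries lay above both controls. The log2 difference was 0.65 ± 0.16 (SE, n = 2 per group, limma adjusted p = 0.0456). The call ended when resistant replicate 1 (0.72, adjusted p = 0.287) or resistant replicate 2 (0.57, adjusted p = 0.427) was left out, and with scaling to library totals (0.61, adjusted p = 0.0506). It also ended without a filter (adjusted p = 0.114). Of its exon length 27.1% is shared with other annotated genes on either strand, and the sources used here do not state a strand setting for the counting.

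The Hoxa3 difference lay in a stretch of chromosome 6 where other genes were higher in resistant cells as well. Of 19 tested genes other than Hox genes within 2 Mb of the cluster, 5 were higher and none was lower, against 5.32% higher and 4.73% lower over all tested genes, with a median log2 difference of 0.36. The 4 tested genes listed as flanks of this cluster all had positive values. Skap2, which encodes a Src-kinase-associated adaptor, averaged 2657 ± 185 normalized counts (resistant) and 1826 ± 106 (control; SD, n = 2 each), a log2 difference of 0.54 ± 0.12 (limma adjusted p = 0.0298). Hibadh, which encodes an enzyme of valine breakdown on the other side of the cluster, averaged 4188 ± 177 (resistant) and 2886 ± 68.0 (control), a log2 difference of 0.54 ± 0.10 (limma adjusted p = 0.0209). The flanking genes Snx10 (0.11) and Tax1bp1 (0.25) did not pass, and Evx1, the homeobox gene just beyond Hoxa13, had 0 reads in every library. The other called genes in the window were Nfe2l3 (1.25), Mpp6 (0.79) and Creb5 (0.71), named after their values were seen. Nfe2l3 lost its call without resistant replicate 1 or 2, Mpp6 without replicate 1 and Creb5 without replicate 2, and all 3 did so without a filter. The part of the chromosomal neighbourhood in the Hoxa3 difference was not tested. Summed leukocyte markers stood at 10967 and 10376 in resistant cells, against 4034 and 6782 in control cells, nearly all from the lysosomal gene Cd68 (1.18 ± 0.27, limma adjusted p = 0.0356), while Ptprc had at most 2.15. The Cd68 call ended without resistant replicate 1 or 2 and without a filter. The 6 pericyte and muscle markers summed to 885 and 1082 in resistant cells, against 494 and 446 in control cells, and 2 of the 5 tested were higher (Des, 2.08; Notch3, 0.93). The 7 endothelial markers summed to 171 and 233 in resistant cells, against 80.7 and 48.4 in control cells, and 1 of the 2 tested was higher (Vwf, 2.45), while Cldn5 had 0 reads and Cdh5 at most 1.92 normalized counts. Without a filter none of Des, Notch3 and Vwf was called, and Notch3 also lost its call without resistant replicate 1 or 2. The part of these cell types was not tested either. Without a filter neither Skap2 nor Hibadh was called (adjusted p = 0.103 and 0.0811). With resistant replicate 1 or 2 left out, both calls were lost, at log2 differences of 0.47 and 0.61 for Skap2 and of 0.49 and 0.58 for Hibadh.

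**Figure D3:**
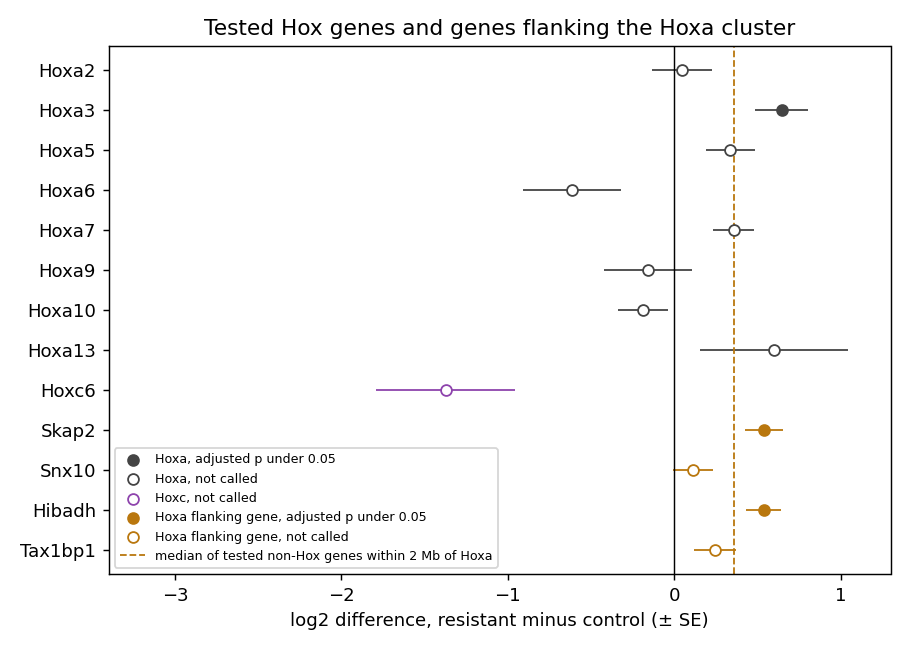
Log2 difference, resistant minus control, ± SE for tested Hox genes and 4 genes that flank the Hoxa cluster; filled points passed the adjusted threshold and open points did not. Hoxa3, Skap2 and Hibadh passed and lie to the right of the dashed line, the median of 0.36 for the 19 tested genes around the cluster.

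The anterior gene Hoxa2 did not pass the test. Hoxa2, which patterns the second branchial arch, had 518 and 606 normalized counts in resistant cells, against 617 and 476 in control cells. Here the groups overlapped, and the log2 difference of 0.05 ± 0.18 (limma adjusted p = 0.898) turned to -0.07 without resistant replicate 2 and to -0.14 without control replicate 2.

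Among the central genes, Hoxa5 and Hoxa7 were the most abundant and had higher means in resistant cells without passing the test. Hoxa5, which acts in mouse lung development and is studied as a regulator of p53 in human breast cells, had 978 and 906 normalized counts in resistant cells, against 815 and 681 in control cells. The groups did not overlap (log2 difference 0.34 ± 0.15, limma adjusted p = 0.195). Hoxa7, a central gene that patterns vertebrae in the mouse, had 1776 and 1887 in resistant cells, against 1354 and 1510 in control cells (0.36 ± 0.12, limma adjusted p = 0.111). Again the groups did not overlap. Hoxa5 passed without control replicate 1 (0.47, adjusted p = 0.0212) and not without control replicate 2 (0.21, adjusted p = 0.353). Hoxa7 passed without control replicate 2 (0.44, adjusted p = 0.0105) and not without control replicate 1 (0.28, adjusted p = 0.147). The spread is then taken from the resistant pair alone.

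Hoxa6, the small gene between them, pointed the other way. It had 69.3 and 108 normalized counts in resistant cells, against 155 and 115 in control cells. The groups did not overlap, although resistant replicate 2 lay close to control replicate 2 (log2 difference -0.62 ± 0.30, limma adjusted p = 0.235). Hoxa6 passed without control replicate 2 (-0.83, adjusted p = 0.0159), was at -0.40 (adjusted p = 0.344) without control replicate 1, and at -0.30 (adjusted p = 0.847) without resistant replicate 1. Without resistant replicate 2 it was at -0.93 and did not pass. Hoxa4 was below the level for testing, with 11.2 and 7.51 in resistant cells, against 7.69 and 8.07 in control cells, overlapping values. Its ratio of resistant to control was 1.19, with a 95% exact binomial interval of 0.575 to 2.50 on 18 and 16 reads.

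The posterior genes of Hoxa showed no difference past the threshold. Hoxa10, needed in the mouse uterus for implantation, had 1164 and 1259 normalized counts in resistant cells, against 1565 and 1216 in control cells. The groups overlapped and the control pair was wide (log2 difference -0.19 ± 0.15, limma adjusted p = 0.481). Without control replicate 2 it passed at -0.37 (adjusted p = 0.0429), and without control replicate 1 it was -0.01. Hoxa9, a leukemia-associated gene and a member of the mammary group 9, had 61.1 and 54.7 in resistant cells, against 69.2 and 60.5 in control cells, with overlapping groups (-0.16 ± 0.27, limma adjusted p = 0.75). Hoxa13, which acts in the mouse hindgut and digits, had 12.2 and 19.3 in resistant cells, against 8.65 and 11.1 in control cells (0.60 ± 0.45, limma adjusted p = 0.438). These are 12 and 18 reads against 9 and 11, and the groups lay apart by little more than 1 normalized count. The group 9 partners Hoxb9, Hoxc9 and Hoxd9 had 1, 0 and 0 reads over all libraries.

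Over the whole cluster, the Hoxa sum was 5685 and 6038 normalized counts in resistant cells, against 5528 and 4920 in control cells. The means were 5862 ± 249 in resistant and 5224 ± 430 in control cells (SD, n = 2 each), a ratio of 1.12. With 2 libraries per group the groups did not overlap, and no test was made on the sum. The makeup of the sum differed slightly. Central genes, groups 4 to 7, gave 49.9% and 48.2% of it in resistant cells, against 42.2% and 47.0% in control cells. Posterior genes, groups 9 to 13, gave 21.8% and 22.1% in resistant cells, against 29.7% and 26.2% in control cells. Both resistant libraries thus had a larger central and a smaller posterior share than both controls, and the control libraries differed from each other by more than the resistant ones. Among the 10 tested Hox genes, both resistant libraries lay above both controls for 5, against 28.4% of all tested genes, and below for 2, against 28.3%. That is 70.0% not overlapping, against 56.7% of all tested genes.

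Hoxc was the one other cluster with more than single reads, and these came from its 3′ end. Hoxc6, a gene of thoracic identity also expressed in mammary tissue, Hoxc4 and Hoxc5 together had 117 of the 121 Hoxc reads. Hoxc6 (ENSMUSG00000001661.5, chromosome 15, 102998257 to 103011881, plus strand) had 9.17 and 13.9 normalized counts in resistant cells, against 25.0 and 38.3 in control cells. Both resistant libraries lay below both controls. The log2 difference was -1.37 ± 0.42 and did not pass (limma adjusted p = 0.0847). It passed without control replicate 1 (-1.67, adjusted p = 0.00605) and not without control replicate 2 (-1.08, adjusted p = 0.112), and over all alternatives tried the adjusted p ran from 0.00605 to 0.498.

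Hoxc4 and Hoxc5 were under the level for testing and lay on the same side. Hoxc4 had 0 and 4.29 normalized counts in resistant cells, against 7.69 and 13.1 in control cells, or 4 against 21 reads over the 2 libraries of each group. Its ratio of resistant to control was 0.202, with a 95% exact interval of 0.0505 to 0.600. Hoxc5 had 0 and 1.07 in resistant cells, against 1.92 and 3.03 in control cells. The whole cluster had 9 and 18 reads in the resistant libraries, against 37 and 57 in the control libraries, a ratio of 0.305 after normalization (95% exact interval 0.191 to 0.472). Intervals of this kind cover counting error and not the spread between tumors. The remaining Hoxc genes had 0 reads in both resistant libraries, against 4 reads over both control libraries, in Hoxc8, Hoxc10 and Hoxc13.

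Around Hoxc the surrounding chromosome did not share that direction. The 47 tested genes other than Hox genes within 2 Mb had a median log2 difference of 0.16. Of them 6 were higher and none was lower, against 5.32% higher and 4.73% lower over all tested genes. The flanking genes Smug1 (0.01), Cbx5 (0.30), Calcoco1 (-0.11) and Hnrnpa1 (0.33) did not pass. Hnrnpa1 has processed copies elsewhere with which reads can be shared. Markers of fibroblasts, cells that commonly carry Hox transcripts, moved in mixed directions beside Hoxc6. Of 11 fibroblast markers 5 were tested, 1 was lower (Dcn, 163 and 143 normalized counts in resistant cells, against 763 and 483 in control cells) and 1 was higher (Pdgfrb, 352 and 458 in resistant cells, against 218 and 185 in control cells). Their log2 differences were -1.99 ± 0.24 for Dcn (limma adjusted p = 0.00343) and 1.00 ± 0.20 for Pdgfrb (limma adjusted p = 0.0252). The call of Pdgfrb ended without resistant replicate 1 or 2 (adjusted p = 0.0799 and 0.288) and without a filter (adjusted p = 0.102), and that of Dcn did not. The summed markers were 8371 and 10011 in resistant cells, against 10370 and 7026 in control cells, mostly from Pdgfra. Dpt and Tcf21 had 0 reads, and Lum, Col3a1 and Thy1 had at most 13.1 normalized counts in any library. The part of such cells in the Hoxc reads was not tested.

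**Figure D4:**
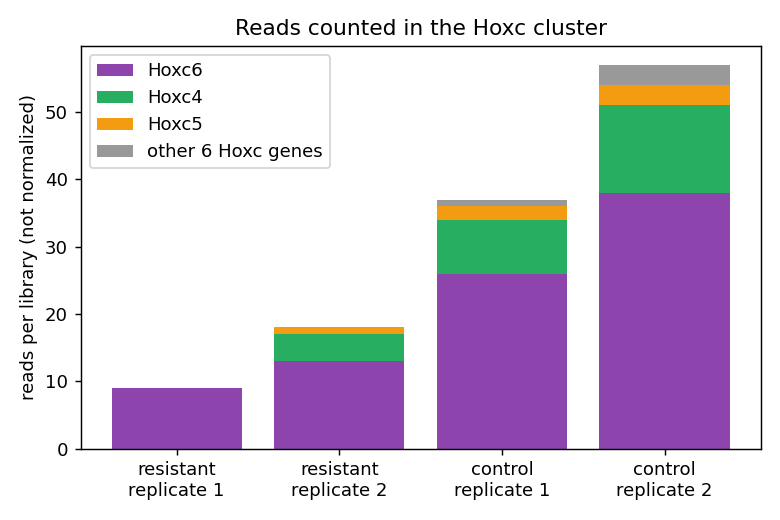
Reads counted in the Hoxc cluster in each library, not normalized, stacked by gene. The resistant libraries hold 9 and 18 reads and the control libraries 37 and 57, and Hoxc6 makes up most of each bar.

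Hoxb and Hoxd gave no usable signal. Hoxb had 0 reads in both resistant libraries, against 2 reads in each control library, counted in Hoxb2, Hoxb3 and Hoxb9, and a floor of 3 reads per library covers such counts. Hox genes of different clusters share homeobox sequence. Identical stretches between annotated transcripts were measured for 308 pairs of a Hoxa gene with a gene of another cluster. The longest was 52 bases, between Hoxa6 and Hoxb4, a gene with 0 reads, and the median was 15. For Hoxb3 the longest was 33 bases, with Hoxa3. Whole transcripts were compared, so these stretches need not lie in the homeobox. The origin of the Hoxb reads was not tested. Reads of the flanking genes of Hoxd were plentiful, with 2596 and 2494 normalized counts of Mtx2 in resistant cells, against 2199 and 2029 in control cells. The absence of Hoxd reads thus did not extend to the mitochondrial import gene Mtx2 next to the cluster. Evx2, the homeobox gene adjoining Hoxd13, had 1 read over all libraries.

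Of the listed noncoding transcripts, those with any read all belong to the Hoxa region. Of 17 measured, 12 had 0 reads, among them Hotair in Hoxc, Hottip at the 5′ end of Hoxa, Haglr in Hoxd and the hairpins of Mir10a, Mir10b, Mir196b and Mir615. Libraries of long RNA do not measure mature miRNAs. The 3 that could be tested all belong to the Hoxa region and did not pass. Hotairm1, a transcript from the 3′ end of the cluster that is induced with myeloid differentiation in human cells, had 66.2 and 68.6 normalized counts in resistant cells, against 42.3 and 59.5 in control cells (log2 difference 0.42 ± 0.29, limma adjusted p = 0.407). Hoxaas2, antisense to Hoxa3, had 20.4 and 13.9 in resistant cells, against 10.6 and 12.1 in control cells, and Halr1, beyond the 3′ end of Hoxa, had 4.08 and 6.44 in resistant cells, against 16.3 and 14.1 in control cells (-1.40 ± 0.47, limma adjusted p = 0.109). Gm15050, an annotated antisense transcript inside Hoxa named after its values were seen, had 160 and 130 in resistant cells, against 128 and 113 in control cells.

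Transcripts of the proteins that work with or on Hox genes were present in both groups, and few passed the test. Over all tested genes, 10.1% were called in either direction. Of 9 TALE cofactors 8 were tested and none passed (limma; median log2 difference 0.07). Meis1, which forms complexes with posterior Hox proteins, had 572 and 527 normalized counts in resistant cells, against 531 and 593 in control cells, overlapping values. None of 16 Trithorax and activator genes passed (median -0.04), including Kmt2a, which maintains Hox transcription (0.16 ± 0.12, limma adjusted p = 0.452), and Men1, its partner menin (-0.40 ± 0.11, limma adjusted p = 0.0676). None of 18 PRC1 genes passed (median 0.02), nor did any of 10 genes for CTCF, cohesin and related architecture (median -0.01).

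Of 11 genes for PRC2, the complex that methylates histone H3 at silent Hox genes, 1 was called, against 10.1% of all tested genes. The list median was -0.03, and the called gene was Rbbp7. This histone-binding subunit is shared with other chromatin complexes. Rbbp7 had 18247 and 17879 normalized counts in resistant cells, against 13159 and 13543 in control cells (0.44 ± 0.10, limma adjusted p = 0.0378). Its call ended when resistant replicate 1 (0.42) or resistant replicate 2 (0.45) was left out, with library totals (adjusted p = 0.0541), with limma voom (adjusted p = 0.0567) and without a filter (adjusted p = 0.103). The catalytic subunit Ezh2 (-0.12 ± 0.12, limma adjusted p = 0.563) and the core subunit Suz12 (-0.03 ± 0.10, limma adjusted p = 0.902) did not pass.

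Of 20 genes for retinoic acid handling and Cdx factors, 11 were tested and 1 was higher, with a median of 0.10. Among all tested genes 10.1% were called in either direction, so 1 call of 11 is not read as a result about the list. Cyp26b1, an enzyme that degrades retinoic acid, had 457 and 560 normalized counts in resistant cells, against 212 and 204 in control cells. Resistant and control libraries lay far apart, with a log2 difference of 1.28 ± 0.18 (limma adjusted p = 0.00650). Without resistant replicate 2 the call ended (1.13, adjusted p = 0.0963). The receptors Rarg (0.16 ± 0.14, limma adjusted p = 0.529) and Rara (-0.08 ± 0.13, limma adjusted p = 0.746) did not pass, and the Cdx genes had at most 1 read each. Among 10 other homeobox genes related to Hox only Gbx1, a gene of the developing nervous system, was tested. Gbx1 had 47.9 and 50.4 normalized counts in resistant cells, against 9.61 and 8.07 in control cells (2.35 ± 0.35, limma adjusted p = 0.00837). Its call ended without resistant replicate 1 (2.39, adjusted p = 0.0702) or resistant replicate 2 (2.32, adjusted p = 0.0837), and without a filter (adjusted p = 0.0517).

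**Figure D5:**
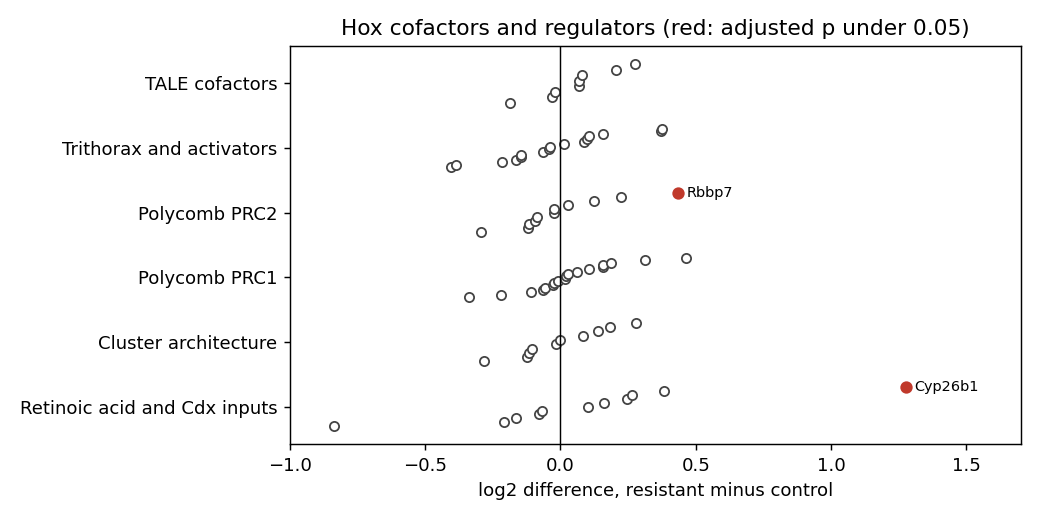
Log2 difference, resistant minus control, for the tested genes of 6 lists of Hox cofactors and regulators, one point per gene. Rbbp7 (0.44) and Cyp26b1 (1.28), in red, passed the adjusted threshold and the open points did not.

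A few of the genes tied to Hox proteins in breast or vascular cells passed the test. Of 16 such genes 13 were tested, 1 was higher and 2 were lower, with a median of -0.16. Over all tested genes 5.32% were higher and 4.73% lower. The counts are not read as a result about the list, on which no test was run. The integrin subunit Itgb3 had 1831 and 2220 normalized counts in resistant cells, against 1213 and 711 in control cells (1.12 ± 0.24, limma adjusted p = 0.0295). The TGF-beta receptor Tgfbr2 had 4759 and 5427 in resistant cells, against 7039 and 6759 in control cells (-0.44 ± 0.11, limma adjusted p = 0.0477). The coactivator Crebbp, an acetyltransferase that Hox proteins can bind, had 2567 and 2779 in resistant cells, against 3551 and 4304 in control cells (-0.55 ± 0.13, limma adjusted p = 0.0373). With resistant replicate 1 or 2 left out, Tgfbr2 (-0.35 and -0.54) and Crebbp (-0.49 and -0.61) lost their calls. The call of Itgb3 ended without resistant replicate 2 (0.98, adjusted p = 0.124). Without control replicate 2, Itgb3 was at 0.73, still called. Without a filter none of the 3 was called (adjusted p = 0.149 for Itgb3, 0.141 for Tgfbr2 and 0.137 for Crebbp). Epha2, Itga5 and Ctnnb1, the most abundant of the list beside these, did not pass.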

How the data were processed

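RNA from 4 libraries was compared, 2 resistant and 2 control, grouped by their source labels, and table columns were matched to sample titles. The authors deposited log2 values, and the submitters' processing notes name STAR, DESeq2 and mm10 without versions or roles. From the values, each is log2(reads divided by a size factor, plus 1), and all of them fell on whole reads at a tolerance of 0.01 reads, so reads per gene and depth could be recovered. Symbols and coordinates came from GENCODE M21 (GRCm38, which is mm10), joined on the Ensembl identifier without its version for 55144 of 55385 genes. Promoter sequences are from RefSeq on GRCm38.p6.

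Fits used limma 3.58.1 under R 4.3.3 (lmFit and trended eBayes, group as the one term) for genes averaging 10 normalized counts or more, on the deposited values, with Benjamini-Hochberg adjustment at 0.05. The fit was also run on simulated reads with the same extra spread for every gene and both groups. That setting is simpler than these libraries, so it does not give the error rate here. Members and lists, and the rule for named genes (every Hox gene, called and most abundant genes of each list, cluster flanks), were chosen with earlier results of these data known. Of the listed genes, Hotairm2 and Prac1 could not be matched. A few genes of the family and the lists enter counts and sums but are not reported singly here. Each choice of pseudocount, filter, scaling, moderation, weighting (voom), block and library was varied in turn.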

Additional observations from a re-analysis of the deposited data

How the results depend on the processing

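Counts of calls depended on the libraries used and on the filter. In the limma fit 758 genes were higher and 674 lower in resistant cells, with 1 Hox gene higher and 0 lower. Without a filter these were 126 higher and 185 lower, with 0 Hox genes higher. With scaling to library totals and with limma voom on recovered reads, 0 Hox genes were higher, and Hoxa3 stood at adjusted p = 0.0506 and 0.0543. The share of all calls that were higher was 52.9% in the limma fit, 40.5% without a filter and 45.1% with library totals. When 1 library was left out, higher calls over all genes ran from 146 (without resistant replicate 2) to 2074 (without control replicate 2) and lower calls from 234 (without resistant replicate 1) to 1993 (without control replicate 2). Hox genes called higher then ran from 0 to 2 and Hox genes called lower from 0 to 2. Such a fit takes the spread from the other group alone, assuming that the lone library varies like it.

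A replicate block left 0 Hox genes higher and put Hoxa3 at adjusted p = 0.124, and it also ended the calls of Rbbp7 (0.140), Tgfbr2 (0.113) and Skap2 (0.0561). Same-numbered libraries deviated in opposite directions (r = -0.36). With 2 libraries per group this is a single value, which cannot decide whether the numbers pair them. A block with crossed numbers, chosen after seeing the data, gave 2402 higher and 2182 lower genes, with 3 Hox genes higher and 2 lower. The direction of every tested Hox gene held under each alternative run, except Hoxa2, which ran from -0.14 (without control replicate 2) to 0.23 (without control replicate 1) and was at -0.07 without resistant replicate 2. The median over the tested Hox genes was -0.03 without control replicate 2. At a minimum mean of 50, Hoxa13 and Hoxc6 were not tested. Depth limits the Hoxb, Hoxc and Hoxd genes, which lie near or under 3 reads per library except Hoxc4 and Hoxc6.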

Other observations

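Epop, a gene for a protein associated with PRC2 that lies within 2 Mb of the Hoxb cluster, was named after its values were seen. It averaged 33.6 ± 7.13 normalized counts in resistant cells and 151 ± 3.85 in control cells (SD, n = 2 each), a log2 difference of -2.15 ± 0.27 (limma adjusted p = 0.00386). Without a filter its adjusted p was 0.0384, and with 1 library left out the difference ran from -2.36 to -1.94 and Epop passed each time.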
